A study of Mus musculus with 44 samples.

Results

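The genes described here are 10 markers of the blood vessel wall: the endothelial markers Cdh5, Flt1, Kdr, Pecam1, Egfl7 and Vwf, and the mural markers Acta2, Tagln, Rgs5 and Pdgfrb. They were picked by name, as the lines of 3 tables of expression values that carry these gene symbols, and were found for all 10 among 45882 genes in the naive table and in the surgery table. The neuron table, with 12170 genes, lists 6 of them. The levels are FPKM (fragment counts divided by transcript length and by the mapped fragments of the library), from bulk RNA sequencing of 44 libraries in 12 groups of C57BL/6 mice. The naive table holds 4 libraries of satellite glial cells (SGCs, glia that form a sheath around the cell bodies of sensory neurons) and 4 of dissociated dorsal root ganglia (DRG), all from mice of 9 weeks with no surgery. The surgery table holds 16 SGC libraries, 4 in each group: 3 days after full ligation of the sciatic nerve, 3 days after sham surgery, 14 days after ligation and 14 days after sham surgery. The neuron table holds 20 libraries taken 8 days after partial sciatic nerve ligation or sham surgery: 4 from the ligated side and 4 from the opposite side of ligated mice, and, for each sex, 3 from ligated mice and 3 from sham mice. The operated mice were 9 to 11 weeks old. Per the labels' protocols the SGCs came from L3 and L4 ganglia that were dissociated, fixed with 4% paraformaldehyde, stained with antibodies and sorted by flow cytometry, the naive DRG cells went through dissociation and fixation without any sort, and the unfixed neurons were purified by magnetic sorting. No label says which animals a library came from or whether it pools several, so the p-values measure only the spread between libraries. The study asked how the transcriptome of SGCs changes with time after nerve injury.

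The endothelium lines every vessel, and mural cells (smooth muscle on arterioles and venules, pericytes on capillaries) sit on its outer face. Endothelial cells are recognised by their junction proteins, by the receptors through which vascular endothelial growth factor (VEGF) acts on them and by the clotting factor they store. Contractile mural cells are recognised by smooth muscle actin and its partners, and pericytes by the receptor for platelet-derived growth factor B. The DRG is densely supplied with capillaries, which run among the neuron cell bodies and their SGCs. Cdh5 encodes VE-cadherin of the adherens junction and Pecam1 a junctional adhesion protein. Kdr is the main signalling VEGF receptor, and Flt1 binds VEGF with high affinity and limits what reaches Kdr. Vwf encodes the clotting protein von Willebrand factor. Egfl7 encodes a protein that endothelial cells secrete into their matrix. Acta2 encodes smooth muscle alpha-actin, Tagln the actin-binding protein transgelin, Rgs5 a regulator of G protein signalling that is abundant in pericytes, and Pdgfrb the receptor that mural cells need to be recruited to vessels.

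In GENCODE M21 (GRCm38) the 10 genes lie apart from one another except that Flt1 (5:147561604-147726011, minus strand) and Kdr (5:75932827-75978458, minus strand) share chromosome 5. Cdh5 lies at 8:104101625-104144511 on the plus strand, Pecam1 at 11:106654217-106750628 on the minus strand and Vwf at 6:125546774-125686679 on the plus strand. Egfl7 lies at 2:26580014-26593120 on the plus strand, Acta2 at 19:34241090-34255590 on the minus strand, Tagln at 9:45929619-45936058 on the minus strand and Rgs5 at 1:169655501-169695813 on the plus strand. Cdh5 and Tagln each overlap an annotated antisense gene that was not analysed here, and no source used here says whether counting used strand. Of the 10 symbols, 5 had an entry in the RefSeq promoter table (GRCm38.p6, 250 bases before to 50 after the start). Flt1 and Kdr, which were higher in naive SGCs than in DRG, and Acta2 and Rgs5, which were lower, are shown 5′ to 3′ on the strand of the gene. Capitals mark the GC box GGGCGG, the core promoter element TATAAA, the CArG box (the binding sequence of serum response factor, which drives smooth muscle genes) and CArG boxes in which 1 of the 6 core bases is G or C, each on either strand.
Flt1 (chr5:147725962-147726261, minus strand): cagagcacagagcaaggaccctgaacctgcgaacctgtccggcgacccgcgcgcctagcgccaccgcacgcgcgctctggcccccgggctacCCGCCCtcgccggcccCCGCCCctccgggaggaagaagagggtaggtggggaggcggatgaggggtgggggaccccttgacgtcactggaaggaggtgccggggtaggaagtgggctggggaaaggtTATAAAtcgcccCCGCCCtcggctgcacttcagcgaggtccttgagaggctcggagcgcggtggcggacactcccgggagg
Kdr (chr5:75978406-75978705, minus strand): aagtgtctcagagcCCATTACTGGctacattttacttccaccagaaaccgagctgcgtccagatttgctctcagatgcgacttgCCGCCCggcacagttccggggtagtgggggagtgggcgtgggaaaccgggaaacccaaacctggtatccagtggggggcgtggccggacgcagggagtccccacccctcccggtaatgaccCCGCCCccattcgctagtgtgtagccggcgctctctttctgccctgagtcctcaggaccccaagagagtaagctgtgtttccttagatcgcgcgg
Acta2 (chr19:34255324-34255623, minus strand): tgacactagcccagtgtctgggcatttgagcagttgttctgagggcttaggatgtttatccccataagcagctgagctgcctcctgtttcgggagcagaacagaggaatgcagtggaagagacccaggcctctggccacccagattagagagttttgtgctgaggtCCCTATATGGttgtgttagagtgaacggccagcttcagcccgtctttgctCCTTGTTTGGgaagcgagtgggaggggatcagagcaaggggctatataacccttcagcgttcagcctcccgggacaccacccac
Rgs5 (chr1:169655251-169655550, plus strand): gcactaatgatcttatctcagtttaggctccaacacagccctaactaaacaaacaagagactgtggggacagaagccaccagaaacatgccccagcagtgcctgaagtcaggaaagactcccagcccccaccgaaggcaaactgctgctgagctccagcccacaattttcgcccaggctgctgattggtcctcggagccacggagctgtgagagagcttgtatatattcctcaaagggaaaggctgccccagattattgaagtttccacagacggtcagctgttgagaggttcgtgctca
The Flt1 window held 3 GC boxes and a TATAAA, and the Kdr window held 2 GC boxes. Neither the Acta2 nor the Rgs5 window held a GC box. Of all 32851 promoter windows of this length, 35.7% held a GC box and 13.6% a TATAAA. The Acta2 window held 2 of the CArG boxes with a changed core base and Kdr held 1, against 8.5% of all windows with any. None of the 4 windows held an unchanged CArG box, which 1.63% of all windows did. Egfl7 is also the host gene of an endothelial microRNA, whose mature sequence is shown with its seed (bases 2 to 8) in capitals because its hairpin lies inside the gene.
mmu-miR-126a-3p (chr2:26591402-26591423, plus strand): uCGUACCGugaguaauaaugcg
The Mir126a line was listed at 0 FPKM in all 8 naive and all 16 surgery libraries.

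The sorted libraries carried markers of the cell type that their labels give, along with markers of other cells. All 10 satellite glial markers tested, Gja1 and Fabp7 among them, were higher in naive SGCs than in naive DRG, where 16.9% of all genes tested were higher. All 9 neuron markers tested were lower, where 27.9% of all genes tested were. Neuron markers low in SGCs, such as Nefh with 0.548 to 3.50 FPKM there, could pass the filter on low values through DRG. The count of neuron markers is therefore not read against all genes. In the SGC libraries after surgery, satellite glial markers summed to between 14140 and 22170 FPKM and neuron markers to between 163.9 and 752.7 FPKM. Neuron markers summed to between 6790 and 10140 FPKM in the neuron libraries. There, myelinating Schwann markers summed to between 724.9 and 2845 FPKM and erythrocyte markers to between 354.3 and 24160 FPKM. The number of genes at 1 FPKM or more ran from 11441 to 13173 per library for naive mice, from 11452 to 12775 for SGCs after surgery and from 10225 to 11004 for neurons. Read counts were not among the values used, so the depth of each library is unknown. A 0 in these tables is not always an absence of reads: 1687 of the 8180 genes that reached 10 FPKM in some library of the surgery table were listed at 0 in another.

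Endothelial markers were well represented in the sorted naive SGCs, and Cdh5, Flt1 and Kdr were higher there than in the dissociated ganglia. Cdh5 had 8.62, 12.5, 7.24 and 15.0 FPKM in naive SGCs, against 3.26, 2.93, 2.99 and 3.17 FPKM in naive DRG. Flt1 had 13.1, 15.0, 17.0 and 24.0 FPKM in naive SGCs, against 7.52, 7.12, 7.65 and 7.39 FPKM in naive DRG. For both genes every SGC library was above every DRG library, a separation that 16.7% of all genes tested had in this direction and 27.1% in the opposite one. The difference of SGCs minus DRG was 1.49 ± 0.22 (SE) on the log2(FPKM + 1) scale for Cdh5, with an adjusted p of 0.00069 in limma, and 1.09 ± 0.18 for Flt1, with an adjusted p of 0.00149 (n = 4 libraries each). Kdr was low in both, at 2.01, 1.73, 2.04 and 3.46 FPKM in naive SGCs and 1.01, 1.02, 1.22 and 1.56 FPKM in naive DRG. Its groups did not overlap, and the difference of 0.57 ± 0.19 passed with an adjusted p of 0.0393. The Kdr call was lost without the filter on low values (adjusted p = 0.108) and on leaving out SGC replicate 3 or 4 or DRG replicate 1, 2 or 3, with adjusted p of at most 0.111.

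Pecam1, Vwf and Egfl7 did not pass the threshold in this comparison. Pecam1 had 5.66, 8.52, 7.02 and 10.05 FPKM in naive SGCs, against 4.73, 4.45, 4.72 and 6.97 FPKM in naive DRG, and DRG replicate 4 lay within the SGC range. The Pecam1 difference was 0.49 ± 0.20 with an adjusted p of 0.0786 in limma; it was 0.62 both without DRG replicate 4 (adjusted p = 0.0427) and without SGC replicate 1 (adjusted p = 0.0307). Vwf had 13.4, 25.9, 15.4 and 19.8 FPKM in naive SGCs, against 19.997, 12.1, 14.6 and 12.4 FPKM in naive DRG, so the groups overlapped and Vwf differed by 0.30 ± 0.23 (adjusted p = 0.331, limma). Egfl7 was the most abundant of the 10 genes in naive SGCs, with 41.3, 119, 52.2 and 60.9 FPKM in naive SGCs, against 0, 49.6, 0 and 29.0 FPKM in naive DRG. The DRG libraries of Egfl7 were thus either well expressed or listed at 0, and no fold change is given. Its adjusted p in limma was 0.0663, against 0.0242 without DRG replicate 2 and 0.0446 without DRG replicate 4. Agpat2, on the opposite strand, shares 64 bases with the end of Egfl7 and was listed at 0 in 6 of the 8 naive libraries and up to 9.88 FPKM in the others. The protein-coding Gm20532, on the same strand, shares 6482 bases with Egfl7 and was listed at 0 in all 8 naive and all 16 surgery libraries. Whether either overlap bears on the Egfl7 zeros was not tested. In all, 3 of the 6 endothelial markers were higher in naive SGCs and none lower, where 16.9% of the 12907 genes tested were higher, 27.9% were lower and 44.9% were called in either direction. The median difference was 0.83 over the 6 markers and -0.12 over all genes tested. With quantile normalization the median of all genes tested was 0.161, a shift of 0.286, and the calls were 3701 higher and 2691 lower in place of 2184 and 3605. Measured from the median of all genes, Cdh5 was higher by 1.61 as deposited and by 1.56 after quantile normalization, Flt1 by 1.21 and 1.11, and Kdr by 0.692 and 0.968. Pecam1 and Egfl7 also passed after quantile normalization, which made 5 of the 6. In bulk libraries, fewer cells of a type and less RNA of that type per cell cannot be told apart.

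**Figure D1:**
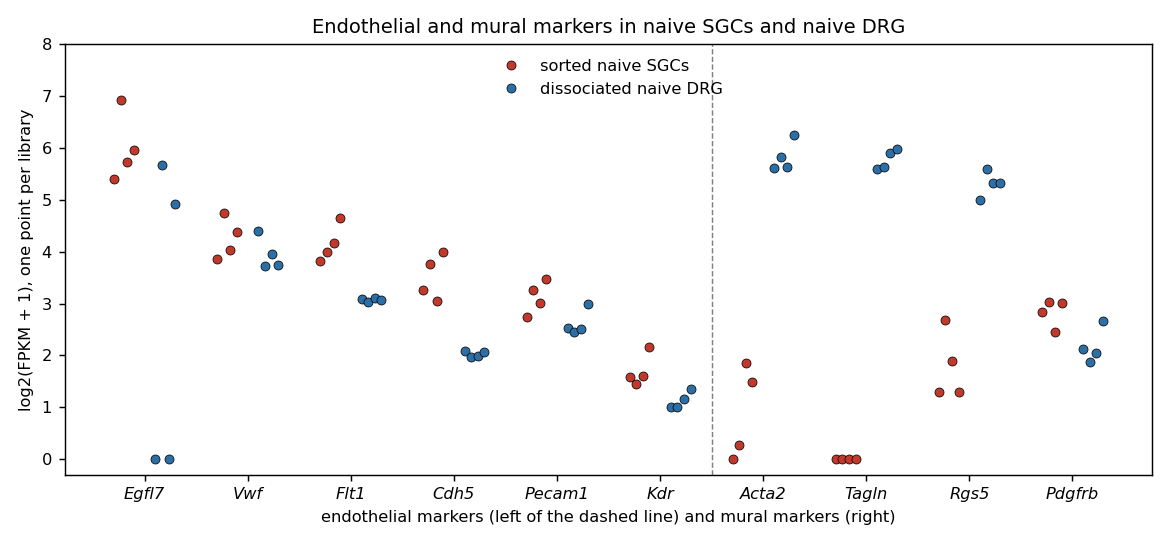
Level of the 10 markers as log2(FPKM + 1), one point per library, in sorted naive SGCs (red) and dissociated naive DRG (blue), 4 libraries each. Cdh5, Flt1 and Kdr are separated with SGCs above, Acta2, Tagln and Rgs5 are separated with SGCs below, and Egfl7 has 2 DRG libraries listed at 0.

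The mural markers split: Acta2 and Rgs5 were lower in naive SGCs than in DRG, Tagln was listed at 0 in SGCs, and Pdgfrb was higher. Acta2 was listed at 0, 0.207, 2.63 and 1.82 FPKM in naive SGCs, against 47.7, 55.8, 48.5 and 74.7 FPKM in naive DRG. Tagln was listed at 0 in all 4 naive SGC libraries, against 47.5, 48.2, 58.6 and 62.4 FPKM in naive DRG. Tagln passed the filter on low values only through the DRG libraries, and Acta2, which reached 1 FPKM in 2 SGC libraries, passed through DRG as well. Both also have zeros in SGC libraries, so no fold change or p-value is given for either. Rgs5 had 1.44, 5.40, 2.72 and 1.46 FPKM in naive SGCs, against 31.1, 47.3, 39.0 and 38.7 FPKM in naive DRG. That difference was -3.52 ± 0.31 on the log2(FPKM + 1) scale with an adjusted p of 6.03e-05 for Rgs5 in limma. Pdgfrb had 6.12, 7.11, 4.47 and 7.09 FPKM in naive SGCs, against 3.33, 2.64, 3.12 and 5.36 FPKM in naive DRG, and DRG replicate 4 overlapped the SGC range. The Pdgfrb difference of 0.66 ± 0.22 passed with an adjusted p of 0.036, and lost its call without the filter (adjusted p = 0.0691) and on leaving out any SGC replicate but 3, or DRG replicate 1, 2 or 3, with adjusted p of at most 0.102. Rgs5 and Pdgfrb reached 1 FPKM in every library of both groups. Acta2 and Tagln were tested because of their levels in DRG, so no count over the mural markers is read against all genes. The order of the levels was turned round between the samples. In naive DRG Acta2 and Tagln came first, with 56.6 ± 12.5 and 54.2 ± 7.4 FPKM (SD, n = 4), and Cdh5 and Kdr came last. In naive SGCs Egfl7 came first, apart from all others, followed by Vwf, Flt1 and Cdh5, whose neighbours in that order overlapped.

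The zeros of Tagln need to be read with the authors' deposited tables. Tagln was listed at 0 FPKM in all 16 libraries of the surgery table as well, yet the authors' deposited tables give it a mean normalized count of 149.7 over the libraries of the 3-day comparison and 241.6 over those of the 14-day comparison. Reads of Tagln were therefore counted in SGC libraries in which its FPKM is 0. The same held for 108 of the 15118 genes listed at 0 FPKM in all 8 libraries of the 3-day comparison, which had a mean normalized count of 100 or more in the authors' deposited table. Tagln shares 108 bases with the end of Pcsk7 on the opposite strand, and Pcsk7 was listed at 0 in 13 of the 16 surgery libraries. Whether this overlap bears on the zeros was not tested. Acta2, which overlaps no other annotated gene, had mean normalized counts of 104.8 and 43.37 in the 3-day and 14-day rows of the authors' deposited tables, against 1593 and 1474 for Cdh5.

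Some of the other endothelial markers were also higher in naive SGCs. Of 25 further markers, 21 were tested, 9 were higher in naive SGCs and none was lower, where 16.9% of all genes tested were higher and 27.9% lower. Icam2 had 1.90 to 6.76 FPKM in naive SGCs and 0.751 to 1.80 FPKM in naive DRG. Markers low in DRG could thus pass the filter on low values through SGCs, so the count of higher markers is not read against all genes. The differences of the markers tested are described next. The median difference of the 21 was 0.67, with 18 positive. Ly6c1, a surface antigen of endothelial cells and some leukocytes, had 200 ± 47.6 FPKM in naive SGCs and 80.1 ± 10.8 FPKM in naive DRG (SD, n = 4 each), a difference of 1.29. Cldn5, the tight junction claudin of the endothelial barrier, had 16.8 ± 6.97 FPKM in naive SGCs and 6.67 ± 2.06 FPKM in naive DRG. The transport genes of nervous system endothelium were higher in 6 of 8 tested and lower in 1, beside the 16.9% and 27.9% of all genes. The lower one was Spock2, with 23.3 to 39.3 FPKM in naive SGCs and 89.5 to 130.9 FPKM in naive DRG. Mfsd2a, the lipid transporter of brain capillaries, had 61.5 ± 12.2 FPKM in naive SGCs and 23.8 ± 4.96 FPKM in naive DRG, and the organic anion transporter Slco1a4 had 15.99 ± 3.66 FPKM in naive SGCs and 5.65 ± 0.647 FPKM in naive DRG. Several of these genes are not specific to vessels, and their part from SGCs themselves was not tested.

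Genes used as markers of stretches of the vascular tree ran in either direction, and the venous genes Ackr1 and Nr2f2 went opposite ways. Of the 12 arterial, capillary and venous genes tested, 5 were higher and 2 lower in naive SGCs, where 44.9% of all genes tested were called in either direction. Ackr1, the chemokine receptor of venules, which red blood cells also carry, had 6.05 ± 2.03 FPKM in naive SGCs and 149 ± 39.9 FPKM in naive DRG, a difference of -4.42 with an adjusted p of 1.48e-05 in limma. The part of red blood cells in the Ackr1 level was not tested. Rgcc, which is enriched in capillary endothelium, had 191 ± 34.6 FPKM in naive SGCs and 60.5 ± 13.6 FPKM in naive DRG, a difference of 1.65 (adjusted p = 0.000255). Nr2f2, a transcription factor of venous endothelium, was higher by 1.80 in SGCs, with 131 ± 15.1 FPKM in naive SGCs and 36.9 ± 6.11 FPKM in naive DRG. Of 13 ligands and receptors of the VEGF, angiopoietin, PDGF and apelin families that were tested, 5 were higher and 3 lower in SGCs, beside the 16.9% and 27.9% of all genes. Vegfa, the ligand of Flt1 and Kdr, had 27.9 ± 4.6 FPKM in naive SGCs and 9.11 ± 1.48 FPKM in naive DRG, a difference of 1.51 (adjusted p = 0.000175). Pdgfa had 2.52 ± 1.63 FPKM in naive SGCs and 11.0 ± 0.362 FPKM in naive DRG. Nrp1, the coreceptor of VEGF that neurons also use for semaphorins, had 9.75 ± 2.63 FPKM in naive SGCs and 21.4 ± 2.10 FPKM in naive DRG.

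Among 15 further mural markers tested, 9 were lower in naive SGCs and 2 higher, beside the 27.9% and 16.9% of all genes, with a median difference of -0.93. Mustn1, a small protein of muscle, had 1.70 ± 1.61 FPKM in naive SGCs and 16.7 ± 3.69 FPKM in naive DRG, a difference of -2.90. Mustn1 passed the filter on low values through DRG, as other genes low in SGCs could. The count of lower mural markers is therefore not read against all genes. Mcam, an adhesion molecule of mural and endothelial cells, had 14.5 ± 6.24 FPKM in naive SGCs and 32.9 ± 1.71 FPKM in naive DRG. Heyl, a Notch target of mural cells, was higher, as Pdgfrb was, with 12.2 ± 3.27 FPKM in naive SGCs and 4.79 ± 0.837 FPKM in naive DRG. Fibroblast and perineurial markers were higher in 3 of 10 tested and lower in 0, beside the 16.9% and 27.9% of all genes, with 5 of the 10 differences positive. The part of fibroblasts, or of SGCs themselves, in the Pdgfrb and Heyl levels was not tested. Markers of neurons and blood cells were lower in the sorted libraries. Neuron markers summed to 89.3 to 268.7 FPKM in naive SGCs and 2393 to 4338 FPKM in naive DRG, and Rgs5 was present in every library of purified neurons described further on. Erythrocyte markers summed to 0.704 to 1.11 FPKM in naive SGCs and 1352 to 3220 FPKM in naive DRG, with all 5 lower. The 3 platelet markers tested were lower, beside the 27.9% of all genes. All 8 macrophage markers tested were lower, with sums of 3.65 to 8.52 FPKM in naive SGCs and 89.7 to 103 FPKM in naive DRG. The erythrocyte markers, and macrophage markers such as Fcer1g, passed the filter on low values through DRG. Their counts are therefore not read against all genes. The part of neurons and blood cells in the endothelial and mural differences was not tested.

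Within a library, the ratio of the summed endothelial to the summed mural markers does not depend on the scaling of that library. It was 10.3 to 14.4 in naive SGCs and 0.209 to 0.501 in naive DRG. In FPKM as listed, endothelial markers exceeded mural ones in every naive SGC library and fell short of them in every naive DRG library. Egfl7 made up between 45.7% and 65.2% of the endothelial sum in naive SGCs and up to 64.2% in naive DRG. Without Egfl7 the ratio was 4.96 to 6.97 in naive SGCs and 0.174 to 0.282 in naive DRG, and the ranges stayed apart. The mural sum was 7.57 to 12.7 FPKM in naive SGCs and 130 to 181 FPKM in naive DRG. Most of the DRG sum came from Acta2 and Tagln, at means of 56.6 and 54.2 FPKM, and Tagln added 0 in naive SGCs. A Tagln FPKM of 0 need not mean an absence of reads, so the mural sums of SGCs may be too low and their ratios too high. The size of this was not tested. The ratio is made of the same values as the single genes above and carries no test.

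**Figure D2:**
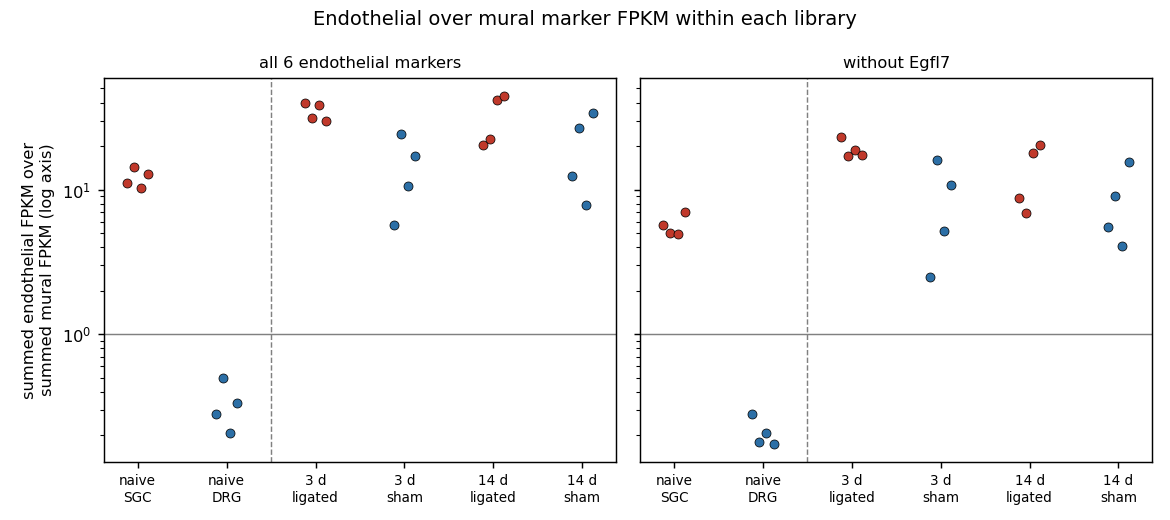
Summed FPKM of the endothelial markers over that of the mural markers within each library, on a log axis, with all 6 endothelial markers (left) and without Egfl7 (right), 4 libraries a group. Naive SGC libraries lie at 10.3 to 14.4 and naive DRG libraries at 0.209 to 0.501, and the ligated libraries at 3 days lie above the sham libraries of that time. The ratios carry no test. Tagln adds 0 to the mural sum of every SGC library, which need not mean an absence of reads, so the SGC ratios may be too high.

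At 3 days after ligation every endothelial marker averaged higher in SGCs from ligated than from sham mice, but none passed the test. Vwf had 53.9, 105, 68.6 and 72.7 FPKM in ligated mice, against 29.0, 78.2, 12.3 and 32.5 FPKM in sham mice at 3 days. Sham replicate 2 lay within the ligated range, and the Vwf difference was 1.203 ± 0.680 with an adjusted p of 0.627 in limma. Egfl7 had 85.7, 177, 141 and 133 FPKM in ligated mice, against 90.2, 95.4, 71.1 and 61.8 FPKM in sham mice at 3 days. All but 1 ligated library exceeded every sham library, with a difference of 0.72 ± 0.28 for Egfl7 (adjusted p = 0.442). Pecam1 had 26.3, 26.6, 13.6 and 26.6 FPKM in ligated mice, against 9.49, 21.4, 12.8 and 22.9 FPKM in sham mice at 3 days. Here again 1 ligated library, replicate 3, lay inside the sham range, and the Pecam1 difference was 0.49 ± 0.30. Cdh5 had 10.3, 23.8, 15.4 and 21.4 FPKM in ligated mice, against 9.08, 17.7, 10.8 and 12.7 FPKM in sham mice at 3 days. Flt1 had 24.3, 49.4, 30.4 and 49.1 FPKM in ligated mice, against 18.4, 53.6, 27.0 and 33.3 FPKM in sham mice at 3 days. Kdr had 2.32, 7.08, 5.56 and 9.99 FPKM in ligated mice, against 2.34, 8.40, 3.11 and 3.31 FPKM in sham mice at 3 days. For these genes the groups overlapped, and the differences were 0.44 ± 0.26 for Cdh5, 0.24 ± 0.31 for Flt1 and 0.45 ± 0.37 for Kdr. Sham replicate 2 was the highest sham library for every one of the 6 endothelial markers but Pecam1. No endothelial marker was called, where 9 of 13924 genes tested, 0.0646%, were called and 1269 genes had an unadjusted p under 0.05. Of the 6 endothelial markers, Egfl7 alone was under that level before adjustment. The median difference of the 6 was 0.47, against -0.01 over all genes tested.

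Further endothelial markers ran the same way at 3 days without calls. Differences were positive for 23 of the 25 tested, with a median of 0.61, where 6762 of the 13924 genes tested had a positive difference. Ly6c1 had 601 ± 160 FPKM in ligated mice and 366 ± 114 FPKM in sham mice (SD, n = 4 each; adjusted p = 0.456). Abcg2, an efflux pump of the endothelial barrier, had 210 ± 26.3 FPKM in ligated mice and 136 ± 45.1 FPKM in sham mice. The capillary gene Rgcc had 174 ± 32.6 FPKM in ligated mice and 160 ± 44.0 FPKM in sham mice. Vegfa was not called either, with 16.3 ± 3.59 FPKM in ligated mice and 27.3 ± 5.43 FPKM in sham mice (adjusted p = 0.262). Satellite glial markers had a median difference of 0.00 at 3 days, with 5 of 10 positive.

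Mural markers did not share this direction at 3 days. Acta2 was listed at 0, 3.71, 0 and 0 FPKM in ligated mice, against 6.83, 2.26, 2.30 and 2.64 FPKM in sham mice at 3 days. The ligated library with Acta2 above 0, replicate 2, lay inside the sham range, and the difference had an unadjusted p of 0.0242 and an adjusted p of 0.462 in limma. Rgs5 had 0.811, 4.49, 1.42 and 6.15 FPKM in ligated mice, against 16.2, 5.94, 6.15 and 1.51 FPKM in sham mice at 3 days, a difference of -0.91 ± 0.65. Pdgfrb had 4.27, 4.16, 5.69 and 4.28 FPKM in ligated mice, against 4.60, 3.06, 4.39 and 5.61 FPKM in sham mice at 3 days, a difference of 0.06 ± 0.19. Of 11 further mural markers tested, 1 had a positive difference and none was called, with a median of -0.42. Cald1, the actin-binding caldesmon, had 79.5 ± 31.2 FPKM in ligated mice and 120 ± 11.1 FPKM in sham mice. The ratio of endothelial to mural markers was 30.0 to 39.9 in ligated mice and 5.73 to 24.4 in sham mice at 3 days. Without Egfl7 it was 17.1 to 23.1 in ligated mice and 2.47 to 15.9 in sham mice, so the ranges did not overlap either way. These ratios were compared after the single genes had been seen and carry no test. Tagln adds 0 to every mural sum although reads of it were counted, so the ratios may be too high by an unknown amount.

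**Figure D3:**
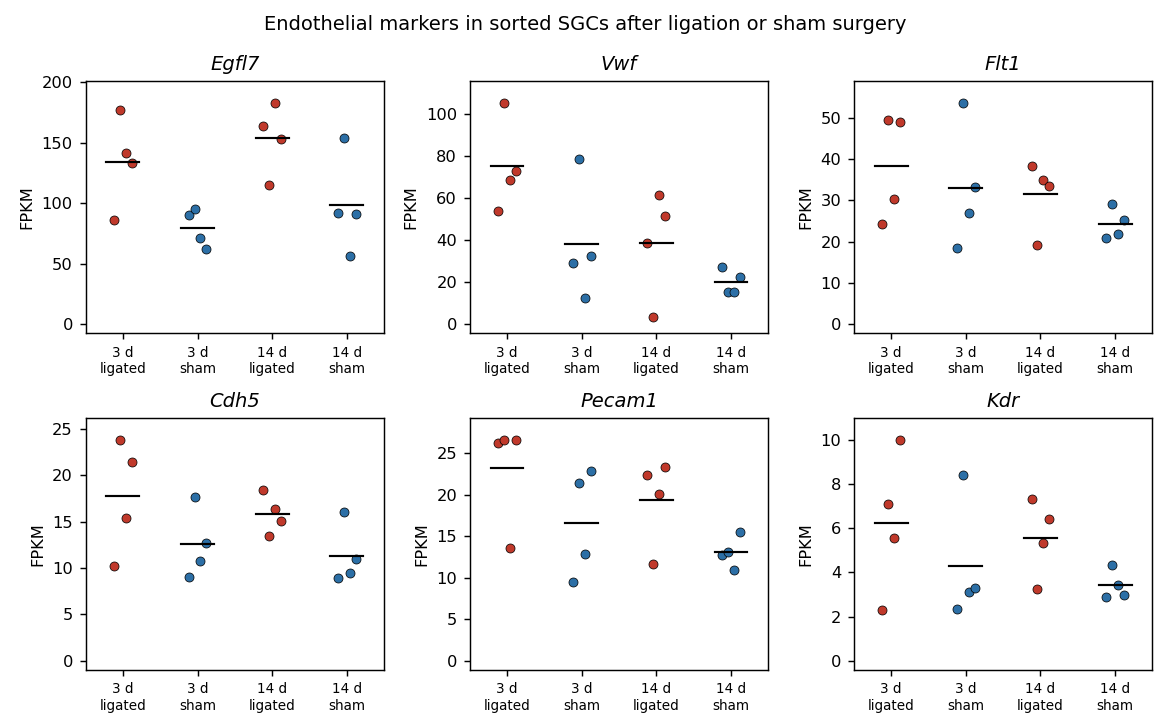
FPKM of the 6 endothelial markers in sorted SGC libraries after ligation (red) or sham surgery (blue) at 3 and 14 days, with one point per library and the mean as a line (n = 4 a group). The ligated mean is above the sham mean in all 12 pairs of groups, and the points of ligated and sham libraries overlap in each.

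**Figure D4:**
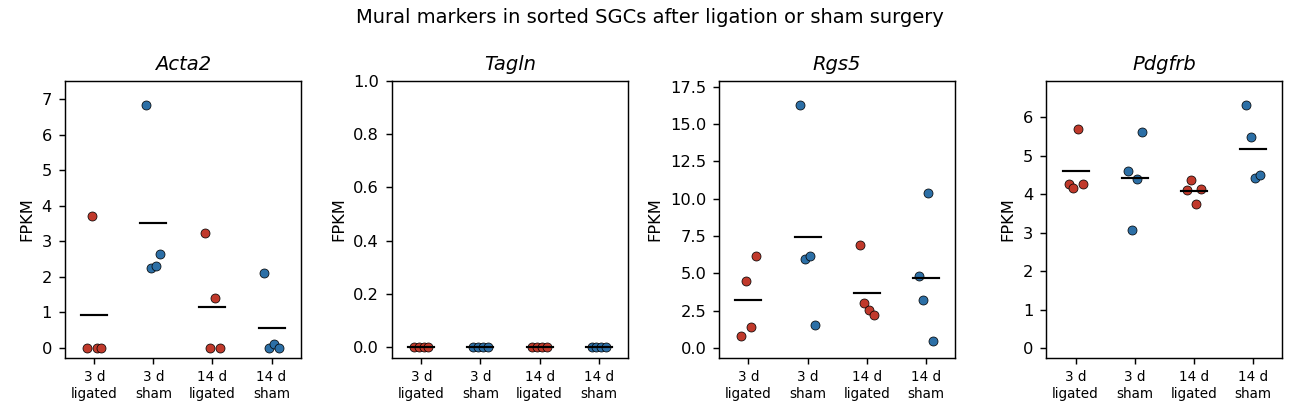
FPKM of the 4 mural markers in the same SGC libraries, with one point per library and the mean as a line (n = 4 a group). Tagln is listed at 0 in all 16 libraries, Acta2 at 0 in 3 ligated libraries at 3 days, and Pdgfrb at 14 days is lower in all ligated libraries than in any sham library.

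At 14 days after ligation the endothelial markers again averaged higher in ligated mice, with no call. Egfl7 had 164, 115, 183 and 153 FPKM in ligated mice, against 91.6, 154, 56.1 and 91.0 FPKM in sham mice at 14 days. Sham replicate 2 lay inside the ligated range, and Egfl7 differed by 0.71 ± 0.28 (unadjusted p = 0.0221, adjusted p = 0.884, limma). Vwf had 38.4, 3.63, 61.2 and 51.5 FPKM in ligated mice, against 27.3, 15.2, 15.1 and 22.3 FPKM in sham mice at 14 days. Ligated replicate 2 was below every sham library for Vwf while the other 3 were above every one, and the difference was 0.45 ± 0.68. Kdr had 7.30, 3.23, 5.33 and 6.41 FPKM in ligated mice, against 2.91, 4.33, 3.45 and 2.96 FPKM in sham mice at 14 days. Cdh5 had 18.4, 13.4, 16.4 and 15.1 FPKM in ligated mice, against 8.90, 16.01, 9.48 and 10.9 FPKM in sham mice at 14 days. Flt1 had 38.4, 19.3, 35.1 and 33.6 FPKM in ligated mice, against 20.99, 29.2, 21.95 and 25.3 FPKM in sham mice at 14 days. Pecam1 had 22.4, 11.6, 20.2 and 23.3 FPKM in ligated mice, against 12.8, 13.2, 10.9 and 15.5 FPKM in sham mice at 14 days. In each of these 4 genes ligated replicate 2 was the lowest ligated library and lay within the sham range or below it. The differences were 0.54 ± 0.37 for Kdr, 0.47 ± 0.26 for Cdh5, 0.33 ± 0.31 for Flt1 and 0.50 ± 0.30 for Pecam1, each with an adjusted p of 1 in limma. At 14 days 1 gene of 13924 was called, 0.00718%, and 718 genes had an unadjusted p under 0.05. The median difference was 0.48 over the 6 markers and -0.02 over all genes tested. Of 25 further endothelial markers, which share the same libraries and are no independent observations, 23 had a positive difference, with a median of 0.43. Macrophage markers stood beside this, with sums of 10.45 to 32.6 FPKM in ligated mice and 2.90 to 18.4 FPKM in sham mice at 14 days. Neuron markers summed to 242.9 to 693.2 FPKM in ligated mice and 193.3 to 444.5 FPKM in sham mice at 14 days, with 7 of 9 differences positive and none called. The part of either list in the endothelial differences was not tested.

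Of the mural markers at 14 days, only Pdgfrb had groups that did not overlap. It had 4.11, 4.36, 3.75 and 4.13 FPKM in ligated mice, against 6.31, 5.47, 4.42 and 4.49 FPKM in sham mice. The Pdgfrb difference of -0.27 ± 0.19 did not pass (adjusted p = 1, limma), and 2.38% of all genes tested had ligated libraries wholly below sham libraries. Acta2 was listed at 3.24, 0, 1.40 and 0 FPKM in ligated mice, against 2.10, 0, 0.118 and 0 FPKM in sham mice at 14 days. Rgs5 had 6.90, 3.03, 2.56 and 2.23 FPKM in ligated mice, against 4.80, 3.19, 10.3 and 0.474 FPKM in sham mice at 14 days, a difference of -0.04 ± 0.65. Neither separated the groups. The ratio of endothelial to mural markers was 20.2 to 44.5 in ligated mice and 7.86 to 33.8 in sham mice at 14 days, and the ranges overlapped.

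No marker was called for a change of the ligation effect between the times, or between 14 and 3 days within ligated or within sham mice. These comparisons called 0.00718%, 0.00718% and 0% of the genes tested in limma, with 584, 869 and 695 genes at an unadjusted p under 0.05, and share groups with the comparisons above. Acta2 in sham mice was listed at 2.10, 0, 0.118 and 0 FPKM at 14 days and at 6.83, 2.26, 2.30 and 2.64 FPKM at 3 days, so all 14-day libraries were below all 3-day libraries. Its adjusted p was 0.967 in limma, and 0.876% of all genes tested had that separation in that direction.

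The authors' deposited tables, made from counts with DESeq2, list the same direction for the endothelial markers, given here as ligated over sham. At 3 days the authors' deposited table gives log2 fold changes of 0.93 for Vwf, 0.57 for Egfl7, 0.53 for Kdr, 0.51 for Cdh5, 0.49 for Pecam1 and 0.22 for Flt1. At 14 days the authors' deposited table gives 0.96 for Vwf, 0.72 for Kdr, 0.60 for Pecam1, 0.56 for Egfl7, 0.51 for Cdh5 and 0.41 for Flt1. None passed 0.05 there, the lowest adjusted p in the authors' deposited tables being 0.31 at 3 days and 0.193 at 14 days, both for Egfl7. For the mural markers the authors' deposited tables give -1.98 for Acta2, -1.19 for Rgs5, -0.90 for Tagln and 0.01 for Pdgfrb at 3 days, and 1.19 for Acta2, -0.34 for Rgs5, -0.43 for Tagln and -0.31 for Pdgfrb at 14 days. These tables come from the same libraries and are no second measurement.

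The endothelial markers were positively correlated across the 16 SGC libraries of the surgery table, while the mural pairs had either sign. With each library set against the mean of its group, all 15 pairs of endothelial markers had a positive Pearson correlation of log2(FPKM + 1), with a median of 0.559 and a range of 0.107 to 0.91. The 18 pairs of an endothelial with a mural marker had a median of 0.046, and the 3 pairs among Acta2, Rgs5 and Pdgfrb a median of 0.08 and a range of -0.185 to 0.46. The highest of these, Acta2 with Rgs5, lay within the range of the endothelial pairs. These correlations are descriptions over 16 libraries that share a normalization. The genes most like the mean of the 6 endothelial markers over the 16 libraries were Gbp4 with a correlation of 0.944, the efflux pump Abcb1a with 0.932, Tspan13 with 0.911, Pcp4l1 with 0.908, Ly6c1 with 0.902 and the transcription regulator Lmo2 with 0.884. Abcb1a and Ly6c1 stand on the lists of endothelial genes used here. Those most like the mean of the 3 tested mural markers were Wfdc2 with 0.862, the potassium channel gene Kcnd1 with 0.82, the intermediate filament gene Synm with 0.807, D930028M14Rik with 0.805, the sodium channel gene Scn1a with 0.795 and Mir124a-1hg, host of a neuronal microRNA, with 0.789. For these likeness values the libraries were not set against the means of their groups. They are the highest among the 13924 genes tested, over 16 libraries, and carry no test. Neuron markers summed to 355 to 640 FPKM in ligated mice and 164 to 753 FPKM in sham mice at 3 days, and their part in the mural levels was not tested.

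In the neuron libraries Egfl7 and Rgs5 were the most abundant of the listed markers, Pdgfrb was intermediate at 1.14 to 8.84 FPKM, and Flt1, Pecam1 and Vwf were lowest. Cdh5, Kdr, Acta2 and Tagln are not among the genes of that table, and their FPKM were not analysed here. Egfl7 had 14.0, 35.0, 31.0 and 17.5 FPKM on the ligated side, against 41.4, 54.5, 37.0 and 115 FPKM on the opposite side. Every ligated-side library was below every opposite-side library, and Egfl7 differed by -1.26 ± 0.35 without passing (unadjusted p = 0.00181, adjusted p = 0.134, limma), where 1.78% of all genes tested had that separation in that direction. Rgs5 had 44.9, 33.1, 33.6 and 31.4 FPKM on the ligated side, against 25.3, 62.9, 48.5 and 32.2 FPKM on the opposite side, with overlapping groups. Rgs5 had between 16.1 and 62.9 FPKM in all 20 neuron libraries, in which the endothelial Flt1, Pecam1 and Vwf stood at no more than 2.90, 5.88 and 3.26 FPKM. Pdgfrb had 2.22, 3.81, 4.17 and 1.14 FPKM on the ligated side, against 4.94, 4.16, 3.73 and 5.44 FPKM on the opposite side, a difference of -0.61 ± 0.36 (adjusted p = 0.601). None of the 6 listed markers was called, where 81 of 12145 genes, 0.667%, were called and 1196 had an unadjusted p under 0.05. The smaller differences were -0.32 for Flt1, -0.85 for Pecam1, -0.65 for Vwf and -0.16 for Rgs5, so all 6 differences were negative, against a median of -0.01 over all genes tested. The 6 markers share the same libraries, so their signs are no independent observations. Erythrocyte markers summed to 10780 to 24160 FPKM on the ligated side and 4088 to 18960 FPKM on the opposite side, and their part was not tested.

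Between ligated and sham neurons of both sexes no marker was called either, where 34 of 12145 genes, 0.28%, were and 435 had an unadjusted p under 0.05. Egfl7 had 18.3, 38.0 and 14.9 FPKM in ligated males, against 25.5, 39.8 and 34.7 FPKM in sham males. It had 48.0, 34.8 and 46.6 FPKM in ligated females, against 32.4, 30.1 and 31.3 FPKM in sham females. Egfl7 was thus higher in every ligated female library than in any sham female library, a separation that 4.65% of all genes tested shared in that direction, while the male groups overlapped. The other separations by sex ran the opposite way. Pecam1 had 0.145, 0.111 and 0 FPKM in ligated females, against 0.245, 0.370 and 2.42 FPKM in sham females, and 3.24% of all genes tested were separated in that direction. Vwf had 0.121, 0.206 and 0.0173 FPKM in ligated males, against 1.52, 0.228 and 1.84 FPKM in sham males, a separation in the direction shared by 3.1% of all genes tested. Most of these Pecam1 and Vwf values lay under 1 FPKM, the minimum of the filter on low values. The difference between the sexes was not called for any of the 6 markers, in a comparison that called 0% of the genes tested and had 130 of them at an unadjusted p under 0.05. Across the sexes the differences were -0.06 ± 0.28 for Egfl7, 0.05 ± 0.24 for Rgs5, -0.10 ± 0.30 for Pdgfrb, -0.20 ± 0.31 for Flt1, -0.45 ± 0.48 for Pecam1 and -0.58 ± 0.35 for Vwf. Within ligated and sham males 0.00823% of the genes tested were called and within females 0.148%, with no marker among them. The authors' deposited table of neurons at 8 days lists Cdh5 and Kdr, with mean normalized counts of 46.87 and 52.48 and log2 fold changes of ligated over sham of -0.58 and -0.15, and Rgs5 with a mean normalized count of 2858. In that authors' deposited table the adjusted p was at least 0.261 for each of the markers that has one.

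**Figure D5:**
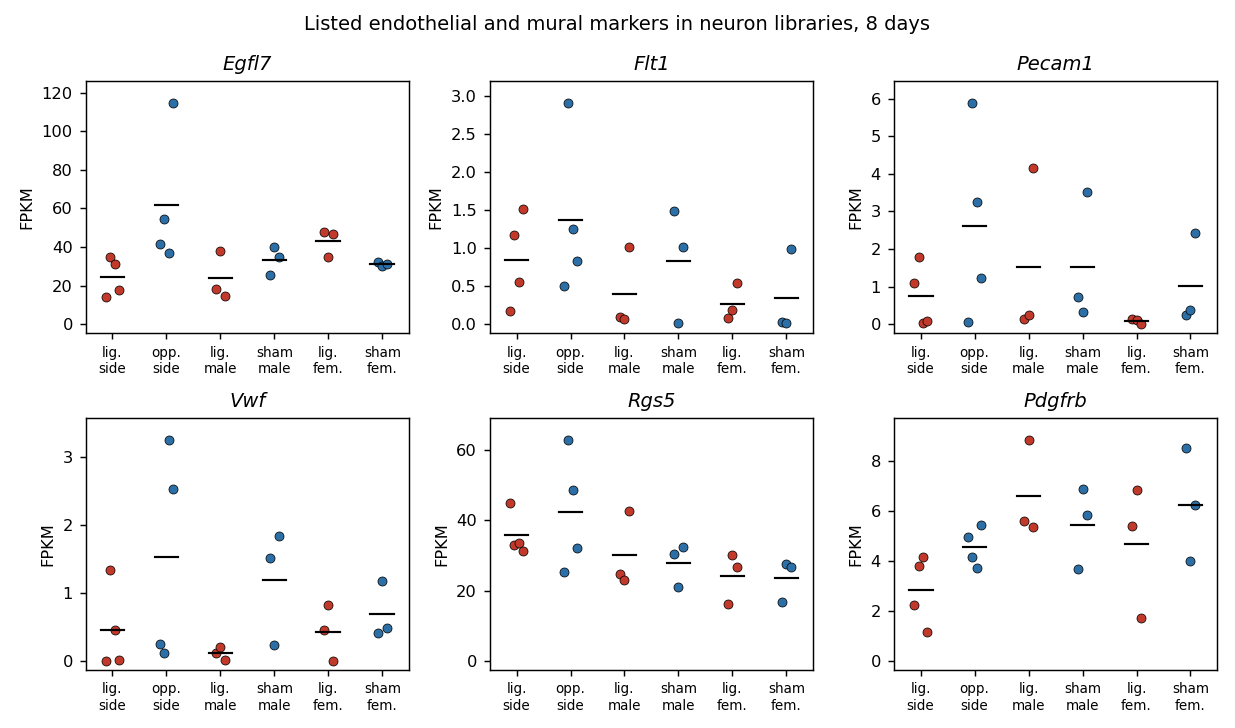
FPKM of the 6 listed markers in neuron libraries at 8 days, ligated side and opposite side (n = 4 each) and ligated and sham mice by sex (n = 3 each), ligated groups in red, with one point per library and the mean as a line. Egfl7 and Rgs5 are present in every library, Egfl7 is lower in all ligated-side than in all opposite-side libraries, and Flt1, Pecam1 and Vwf stay under 6 FPKM.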

How the data were processed

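FPKM values were made by the authors and deposited in 3 tables that were scaled separately, so levels and tests stay within a table; the naive table writes FPKM, a unit the unit check holds as other, with decimal commas. Per the submitters' processing notes STAR, SAMtools, Cufflinks and DESeq2 were used with mm10; versions, order and settings are not given in the sources used here. The authors' deposited comparison tables hold, per the file headers, a mean normalized count (a signal value per gene), a log2 fold change, the standard error of it and an adjusted p-value. Their sign was reversed here to ligated over sham, since 121 of 122, 151 of 152 and 220 of 220 genes past 0.05 had the opposite sign in the FPKM. A further table of this kind names no comparison and was not used.

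Lines sharing an identifier (121 in the naive and in the surgery table, 20 in the neuron table) were summed. Tests used limma 3.58.1 in R 4.3.3 with a mean-variance trend on log2(FPKM + 1), 1 fit per table over all its groups, genes reaching 1 FPKM in no fewer libraries than the smallest group has, and Benjamini-Hochberg adjustment over all genes tested, called at adjusted p under 0.05. Fold changes on this scale understate those of low genes. The fit was tested on simulated data. The alternatives were a pseudocount of 0.1, no filter, quantile normalization, only the groups compared, a replicate block, and leaving out each library. All 10 markers are named. Of each other list up to 4 called genes with the largest difference among those above 0 FPKM in every library were eligible to be named, or, with none called, 2 by level; 6 genes per list were named for likeness. Markers and lists were chosen with earlier results of these data known. Figures were drawn with matplotlib 3.10.9.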

Additional observations from a re-analysis of the deposited data

Results flagged for a closer look

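Within groups of 4 libraries, 8 of the 67 combinations of marker and group had a library far from the other 3 (a gap to its nearest neighbour that takes up most of the group's range). Chance alone would flag about 1 in 20 such groups if the values were independent with a normal spread. The markers share libraries and some FPKM are listed at 0, so the 8 of 67 are not read as an excess. In SGCs 3 days after ligation, Acta2 was at 3.712 FPKM in 1 library and listed at 0 in the others, Pdgfrb was at 5.695 FPKM in 1 library and 4.163 to 4.275 FPKM in the others, and Pecam1 was at 13.57 FPKM in 1 library and 26.29 to 26.64 FPKM in the others. In SGCs 3 days after sham surgery, Acta2 was at 6.827 FPKM in 1 library and 2.261 to 2.642 FPKM in the others, and Kdr was at 8.402 FPKM in 1 library and 2.341 to 3.308 FPKM in the others. In SGCs 14 days after sham surgery, Acta2 was at 2.101 FPKM in 1 library and at most 0.118 FPKM in the others. In naive DRG, Pecam1 was at 6.974 FPKM in 1 library and 4.454 to 4.731 FPKM in the others. In neurons of the ligated side, Rgs5 was at 44.93 FPKM in 1 library and 31.36 to 33.63 FPKM in the others. No marker had all its libraries moving in opposite directions at 3 and 14 days, or in males and females.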

How the results depend on the processing

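In the surgery and neuron tables no endothelial or mural marker was called in any of the 272 counts made under the alternatives. In the naive comparison the count of endothelial markers called was 5 with quantile normalization in place of 3, with Pecam1 and Egfl7 added, and ranged from 2 to 5 when 1 library was left out; it was 5 without DRG replicate 4. The count of mural markers called ranged from 3 to 4, which says little, since Acta2 and Tagln were tested through DRG. Cdh5, Flt1 and Rgs5 kept direction and call under every alternative run. The reversed values all belong to differences that were not called, and the cause was not tested: the 14-day Rgs5 difference was 0.12 with a pseudocount of 0.1, and with 1 library left out it ran from -0.57 to 0.41, that of Acta2 at 14 days from -0.028 to 0.78, and that of Pdgfrb at 3 days from -0.070 to 0.16. In neurons, ligated minus sham, leaving out 1 library gave -0.26 to 0.069 for Egfl7, -0.087 to 0.18 for Rgs5 and -0.25 to 0.13 for Pdgfrb, and for Rgs5 on the ligated minus the opposite side -0.37 to 0.052. Values of single markers were not run under the alternatives for the comparisons between times (except Acta2 in sham mice) and between or within the sexes, where only counts are given.

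With the replicate block, 4 endothelial markers were called in the naive comparison, the added one being Egfl7 (adjusted p = 0.0329, limma), and the mural count stayed at 4; no other count of called markers changed. With 4 libraries a group, correlations cannot decide whether the replicate numbers pair the libraries. Same-numbered libraries correlated at 0.003 to 0.186 in the naive table, where 2 of 4 matched their own number best. In the surgery table same-numbered libraries correlated at -0.076 to 0.079. No paired analysis was possible for neurons because their columns carry no replicate number. Depth is unknown, and FPKM listed at 0 limits Tagln, Acta2 and Egfl7 most.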
